A study of Canis lupus familiaris with 30 samples.

Results

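The difference between the diet groups at week 3 was read from the 3 arrays, of 30 in the series, on which blood cells of kibble-fed and meat-fed dogs after 3 weeks of feeding were hybridised together. They were chosen by their titles, which pair kibble and meat at week 3, and each log2 ratio was turned to meat over kibble. Across all genes and transcripts the largest named difference was the antimicrobial peptide gene CAMP, 7.74-fold lower in the meat group. CYBB and TLR4 of a list of monocyte genes, the platelet gene GP1BA, the neutrophil granule gene LTF and CCL5 of a cytotoxic lymphocyte list were also lower. Their differences were 1.62-fold to 2.46-fold. Named genes called in the higher direction differed by less, at most 1.54-fold. CAMP was already at -1.86 ± 0.47 (log2, SE) at week 0. No difference between week 3 and week 0 had an adjusted p under 0.05 in limma. GP1BA, LTF and TLR4 lost their calls without at least 1 of the 3 arrays.

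The series compared adult dogs given only a carbohydrate-containing premium kibble (8 dogs) with dogs given only a raw red meat diet high in protein and fat (7 dogs) over 9 weeks. Peripheral blood mononuclear cells (PBMC) were taken at weeks 0, 3, 6 and 9, and 2 RNA samples were hybridised per array, one in each dye, in a loop of comparisons between diets and between weeks. The labels state 6 biological replicates, but not which dog is on which array, so p-values measure the spread between arrays. Breed and sex are not used here, and no other treatment is named for either group.

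PBMC are the lymphocytes and monocytes that collect above a density medium when blood is spun. Neutrophils and most red cells pass through that layer, while platelets and low-density granulocytes can stay in it, so the fraction carries RNA of several lineages. CAMP and LTF are stored in neutrophil granules, and CD163 marks monocytes and macrophages. CYBB is a gene of phagocytes, GP1BA marks platelets, and CCL5 and CX3CR1 are typical of cytotoxic T and NK cells. In such mixed RNA, fewer cells of a type and less RNA per cell cannot be told apart.

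On the kibble 3/meat 3 array (replicate 1) the meat sample was in Cy5, and on both meat 3/kibble 3 arrays (replicates 1 and 2) it was in Cy3. Triplets of array values are given in that order. All 3 arrays lay on 1 slide that held no array of another comparison, so week and slide cannot be told apart for the diet arrays. They had 27539 to 29457 probes well above background. Across 25940 genes and transcripts measured on all 3, the meat over kibble ratios of both Cy3 arrays correlated at 0.52 with each other and at 0.13 and 0.16 with the array of opposite dye order. Genes share these arrays and are not independent, and dye order and replicate are both different between them. The fitted values therefore include a dye term for each gene and use all 30 arrays, where weeks 3 and 6 are linked by 8 arrays that pair the same diet. The labelled cell type was checked by listed markers that were well above background in all 7 channels of each group. They were CD4 and CD28 (T cell list), MS4A1 and CD40 (B cell list), CYBB, CD163 and TLR4 (monocyte list) and CD8A. The same held for 6 of 7 neutrophil and all 8 platelet markers measured. Other cells of this fraction can express some of these genes, so they do not assign its RNA to 1 cell type.

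Of 25954 genes and transcripts tested, 598 were higher and 982 lower in the meat group at an adjusted p under 0.05 in limma, which is 6.09% of those tested (2.3% higher, 3.78% lower). At an unadjusted p under 0.05 there were 5670. Of the 1580 called, 1459 had the same sign on all 3 arrays. The fit that made the calls includes these arrays, so this agreement is no separate support. Of everything tested, 17.1% was higher and 17.7% lower on all 3. Among the 1090 with a gene symbol, 17 were higher (1.56%) and 91 lower (8.35%), or 9.91% of them, so that 91 of 108 named calls were lower against 982 of 1580 overall. At an unadjusted p under 0.05 28.6% of the named genes differed, and 26.8% were lower and 10.9% higher on all 3 arrays. Only 58 of all calls reached a difference of 1 on the log2 scale. The median over everything tested was 0.00 (log2), and the median over the named genes was -0.04. The count fell to 215 without meat 3/kibble 3 replicate 2 and to 587 without kibble 3/meat 3 replicate 1. With each array only centred on its median in place of the intensity-dependent loess, 127 were called and 5.51% of these were higher, against 37.8% with loess. Under that scaling 0 named genes were called higher and 17 lower. The 15 largest named higher calls kept their sign and, apart from RPS27A (0.13 against 0.29), much of their size: CYP3A12 was at 0.59 against 0.62 and IL12A at 0.40 against 0.43.

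**Figure D1:**
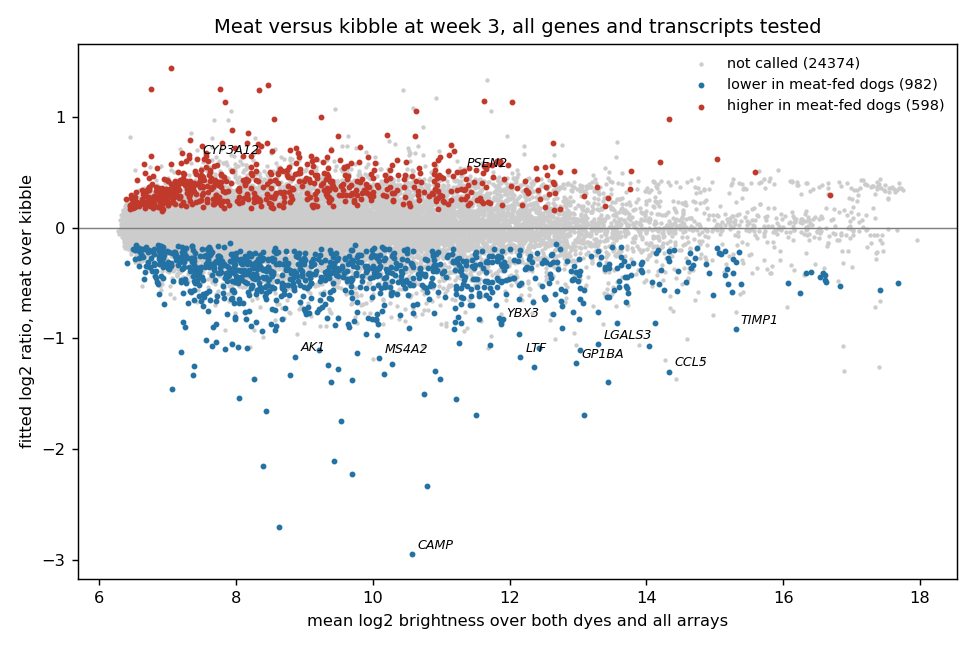
Fitted log2 ratio of meat over kibble at week 3 (vertical axis) against mean log2 brightness over both dyes and all arrays (horizontal axis). Each point is 1 of 25954 genes or transcripts. Red points (598) were higher and blue points (982) lower in the meat group by limma, grey points were not called, and CAMP at -2.95 is the lowest of all.

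CAMP encodes cathelicidin, an antimicrobial peptide of neutrophil granules. Its log2 ratios were -4.44, -2.65 and -1.60, low on every array but over a wide range. The fitted difference was -2.95 ± 0.47 (SE, limma adjusted p = 0.00115), and it stayed past the threshold without any 1 array. LTF, the iron-binding lactoferrin of the same granules, read -2.24, -1.16 and -0.47, in the same order of arrays as CAMP. Its fitted value was -1.17 ± 0.27 (adjusted p = 0.0122 in limma), and without kibble 3/meat 3 replicate 1 the adjusted p was 0.0897. ELANE, the neutrophil elastase gene, was lower by a small amount (-0.26, -0.48 and -0.22, fitted -0.25 ± 0.07).

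The other 4 of the 7 neutrophil genes measured did not pass, and their arrays contradicted each other. MMP9, the gelatinase B gene, ranged over 6.26 on the log2 scale, the widest range of any named gene, with -3.09, 1.63 and 3.17. S100A8, a calcium-binding protein abundant in neutrophils and monocytes, read -2.89, -2.19 and 1.51. CXCL8, the neutrophil-attracting interleukin 8, read -1.35, -0.44 and 1.66. The list therefore held 3 lower and 0 higher calls of 7 measured, against 8.35% of all named genes called lower. Its median was -2.24, -0.48 and 0.52 on the arrays in turn. The mean log2 level was taken over the 6 neutrophil genes read in every channel. It ran from 9.79 to 11.2 in kibble channels and from 9.01 to 10.3 in meat channels, so the ranges overlapped. Such levels, here and for other lists, pool both dyes and ignore the pairing by array. Their overlap does not measure the paired difference. ELANE lost its call without each of the 3 arrays (adjusted p from 0.0997 to 0.212).

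**Figure D2:**
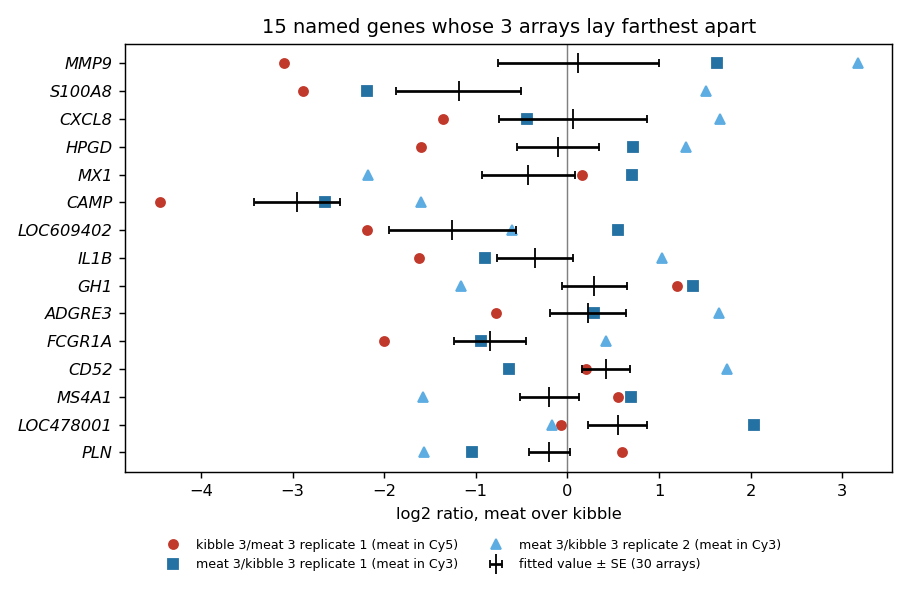
The 15 named genes whose log2 ratios of meat over kibble (horizontal axis) lay farthest apart on the 3 arrays, chosen after their values were seen. Coloured symbols are single arrays and black bars the fitted value ± SE. MMP9 ran from -3.09 to 3.17, while CAMP stayed below 0 on all 3 arrays.

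Other genes with a wide range fell into different patterns, and this description was made after the values were seen. IL1B, the inflammatory interleukin 1 beta, followed S100A8 with -1.62, -0.90 and 1.03. HPGD, which breaks down prostaglandins, followed MMP9 with -1.59, 0.71 and 1.29. In contrast MX1, an interferon-induced antiviral protein, read 0.16, 0.71 and -2.17, and the B cell surface gene MS4A1 read 0.56, 0.69 and -1.58. For the first pair meat 3/kibble 3 replicate 2 was the highest array, and for MX1 and MS4A1 it was the lowest. None of IL1B, HPGD, MX1 and MS4A1 passed the threshold (adjusted p of 0.658, 0.922, 0.668 and 0.767 in limma).

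Of 6 monocyte genes measured, 4 were lower in the meat group and 0 higher, against 8.35% of all named genes called lower. CYBB, the catalytic subunit of the phagocyte NADPH oxidase, read -1.42, -0.33 and -0.76. Its fitted value was -0.86 ± 0.16, or 1.82-fold lower (adjusted p = 0.00366), and it kept its call without any 1 array. All 4 called genes were below 0 on every array and lowest on the kibble 3/meat 3 array. TLR4, the receptor for bacterial lipopolysaccharide, read -1.12, -0.48 and -0.48 (fitted -0.70 ± 0.16, adjusted p = 0.0131). CD163, the scavenger receptor for haptoglobin-bound haemoglobin, read -1.15, -0.55 and -0.88 (fitted -0.81 ± 0.24, adjusted p = 0.0396). CTSS, a cysteine protease of antigen processing, read -0.85, -0.21 and -0.70 (fitted -0.54 ± 0.15, adjusted p = 0.0381). 

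Both monocyte genes that missed the threshold were also below 0 in the fit. TLR2, a receptor for bacterial lipoproteins, read -0.76, -1.04 and -0.86, with less scatter than the called genes, but its fitted -0.78 ± 0.26 had an adjusted p of 0.0678. FCGR1A, the high-affinity IgG receptor, was lowest on the kibble 3/meat 3 array too but reached 0.42 on meat 3/kibble 3 replicate 2. The median of the 6 was -0.80, against 0.00 for everything tested. Only 1 of the 6 was called without kibble 3/meat 3 replicate 1, and only 1 without meat 3/kibble 3 replicate 2. TLR4 then had an adjusted p of 0.0709 and 0.0671, CTSS of 0.144 and 0.238, and CD163 of 0.139 and 0.182. CD163 also missed without meat 3/kibble 3 replicate 1 (0.0623). The mean log2 level of the list was 11.4 to 12.4 in kibble channels and 10.6 to 11.8 in meat channels.

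**Figure D3:**
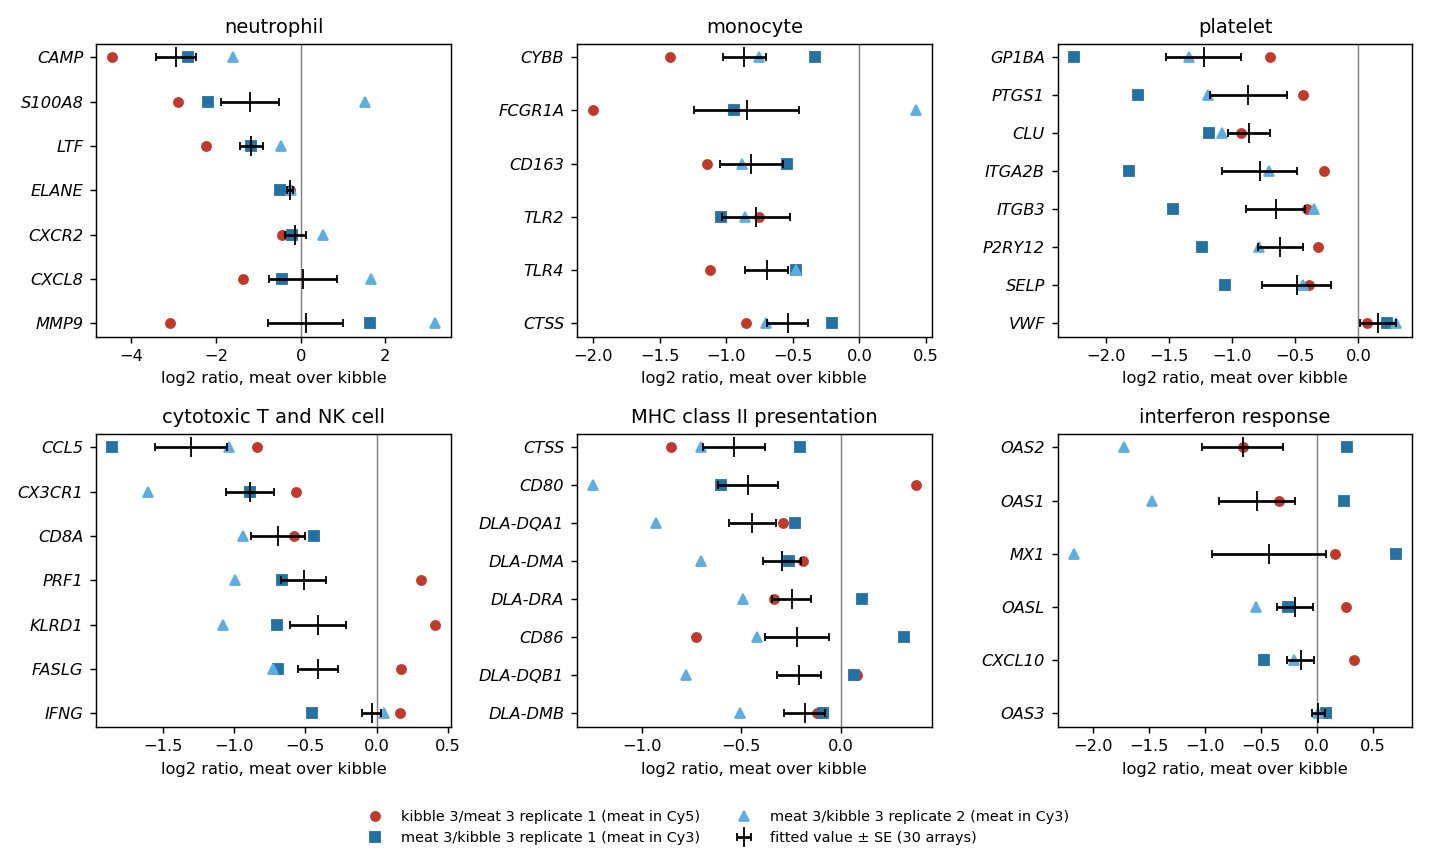
Log2 ratios of meat over kibble at week 3 (horizontal axis, scaled separately per panel) for every measured gene of 6 lists. Coloured symbols are the 3 arrays and black bars the fitted value ± SE. All 6 monocyte genes and 7 of 8 platelet genes had fitted values below 0, and the neutrophil genes MMP9, S100A8 and CXCL8 lay on both sides of 0.

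Of 8 platelet genes measured, 3 were lower and 0 higher, against 8.35% of all named genes called lower. GP1BA, the platelet receptor for von Willebrand factor, read -0.70, -2.26 and -1.35, and its fitted value was -1.23 ± 0.30 (2.34-fold lower, adjusted p = 0.0166). CLU, a secreted chaperone stored in platelet granules, read -0.93, -1.19 and -1.08 (fitted -0.87 ± 0.17, adjusted p = 0.00379), and its 4 other probes ranged from -0.87 to -0.21. P2RY12, the ADP receptor of platelets, read -0.32, -1.24 and -0.78 (fitted -0.62 ± 0.18, adjusted p = 0.0396). Unlike the 4 called monocyte genes, these were below 0 throughout but lowest on meat 3/kibble 3 replicate 1.

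The same array was the lowest for the platelet integrin genes ITGA2B (-0.27, -1.82 and -0.71) and ITGB3 (-0.41, -1.47 and -0.36), and for PTGS1, which makes thromboxane precursors (-0.44, -1.75 and -1.20). None of these passed (adjusted p of 0.113, 0.0928 and 0.0852). VWF, also made by endothelium, was the exception, with 0.07, 0.23 and 0.30. In all 7 of the 8 genes were lower on all 3 arrays. Without meat 3/kibble 3 replicate 2 none of the 8 was called, and without meat 3/kibble 3 replicate 1 only 1 was. GP1BA then had an adjusted p of 0.0994 and 0.137, P2RY12 of 0.214 and 0.299, and CLU of 0.0515 without replicate 2. Without kibble 3/meat 3 replicate 1 P2RY12 had 0.0623. The mean log2 level of the 8 genes was 11.1 to 11.7 in kibble channels and 10.3 to 11.3 in meat channels.

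Cytotoxic lymphocyte genes gave 3 lower calls of 7 measured and 0 higher, against 8.35% of all named genes called lower. CCL5, a chemokine of activated T cells that platelets also store, read -0.84, -1.85 and -1.03. The fitted value was -1.30 ± 0.25, or 2.46-fold lower (adjusted p = 0.00443), and the call held without any 1 array. Here no single array was the lowest for all 3 genes, but each was below 0 on every array. CX3CR1, the fractalkine receptor of cytotoxic cells and some monocytes, read -0.56, -0.89 and -1.60 (fitted -0.89 ± 0.17, adjusted p = 0.0036). CD8A, the CD8 alpha chain, read -0.58, -0.44 and -0.93 (fitted -0.69 ± 0.19, adjusted p = 0.0299). Without meat 3/kibble 3 replicate 2 the adjusted p was 0.0647 for CX3CR1 and 0.202 for CD8A, and CD8A also missed without kibble 3/meat 3 replicate 1 (0.0674).

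The killing genes of the same list split by array. PRF1 (perforin) read 0.31, -0.67 and -0.99, KLRD1 (the NK receptor CD94) 0.41, -0.70 and -1.08, and FASLG (Fas ligand) 0.17, -0.69 and -0.73. Each was higher in meat on the array with meat in Cy5 and lower on both arrays with meat in Cy3. Their adjusted p-values were 0.0532, 0.214 and 0.0726. The mean log2 level of the 7 genes, not paired by array, was 9.63 to 10.4 in kibble channels and 9.44 to 10.4 in meat channels. CD4, of the T cell list, was at 0.01 ± 0.30, and B cell genes MS4A1 and CD40 were at -0.20 ± 0.32 and -0.08 ± 0.17. There were 0 calls among 2 T cell, 2 B cell and 3 dendritic cell genes.

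MS4A2 was 2.27-fold lower, a gene of basophils and mast cells that encodes the beta chain of their receptor for IgE. Its arrays read -1.85, -0.77 and -1.05, the fitted value was -1.18 ± 0.18 (adjusted p = 0.000913), and the call held without any 1 array. The receptor's alpha chain FCER1A did not move with it, with -0.56, 0.38 and 0.50 and a fitted 0.13 ± 0.22. A second MS4A2 probe gave -0.97. In total 1 of 4 genes of basophils, mast cells and eosinophils was lower, too few to set against the 8.35% of named genes called lower.

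The next genes among the 15 largest lower calls belong to no single cell type. AK1, an adenylate kinase of nucleotide balance, read -1.02, -1.60 and -1.33 (fitted -1.17 ± 0.21, adjusted p = 0.00279). LGALS3 (galectin-3, a sugar-binding protein abundant in macrophages) read -1.53, -0.58 and -1.09 (fitted -1.05 ± 0.20, adjusted p = 0.00371). TIMP1, an inhibitor of matrix metalloproteinases, read -0.91, -1.35 and -1.04 (fitted -0.92 ± 0.19, adjusted p = 0.00604). All 3 genes were low on every array and kept their calls without any 1 array.

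TSHB, the beta chain of thyrotropin and better known from the pituitary, read -1.02, -1.82 and -1.48 at its 1 probe (fitted -1.13 ± 0.27, adjusted p = 0.0167). LGALS4 (galectin-4) read -0.73, -1.71 and -0.72, and the steroid dehydrogenase gene HSD17B14 read -0.61, -1.62 and -0.90. These fitted at -0.87 ± 0.24 (adjusted p = 0.0327) and -0.87 ± 0.21 (0.0144). All were lowest on meat 3/kibble 3 replicate 1, as the called platelet genes were. Without it the adjusted p was 0.0912 for TSHB, 0.279 for LGALS4 and 0.127 for HSD17B14, and without meat 3/kibble 3 replicate 2 it was 0.11, 0.132 and 0.0845. TSHB and LGALS4 also missed without kibble 3/meat 3 replicate 1, at 0.0623 and 0.0673.

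**Figure D4:**
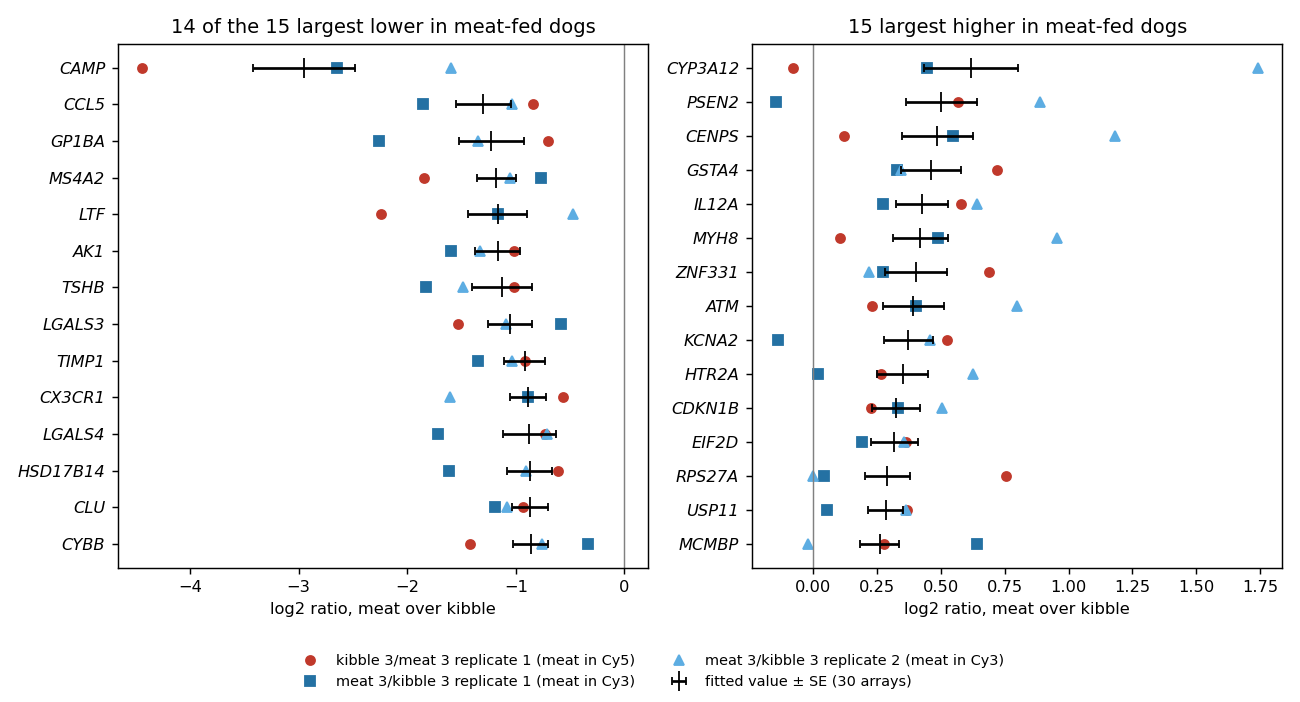
Log2 ratios of meat over kibble (horizontal axes, different scales) for 14 of the 15 largest lower and for the 15 largest higher named calls at week 3. Coloured symbols are single arrays and black bars the fitted value ± SE from all 30 arrays. CAMP reached -2.95, while the largest higher value, CYP3A12, was 0.62.

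The higher calls were smaller, from 0.18 to 0.62 on the log2 scale for the 17 named genes, and only 2 reached 0.5. CYP3A12, a drug-metabolising cytochrome P450 best known from liver, read -0.08, 0.45 and 1.74, so that 1 array carried most of it. Its fitted value was 0.62 ± 0.18 (1.54-fold higher, adjusted p = 0.0437), and the adjusted p was 0.54 without meat 3/kibble 3 replicate 2. PSEN2, a presenilin subunit of gamma-secretase, read 0.57, -0.14 and 0.89 (fitted 0.50 ± 0.14, adjusted p = 0.0322). CENPS, a centromere protein, read 0.12, 0.55 and 1.18 (fitted 0.49 ± 0.14, adjusted p = 0.036). Without meat 3/kibble 3 replicate 2 these had an adjusted p of 0.351 and 0.41.

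GSTA4, IL12A, CDKN1B and ATM were above 0 on all 3 arrays. GSTA4, a glutathione transferase for products of lipid peroxidation, read 0.72, 0.33 and 0.35 (fitted 0.46 ± 0.12, adjusted p = 0.0204). IL12A, the p35 subunit of interleukin 12, read 0.58, 0.28 and 0.64 (fitted 0.43 ± 0.10, adjusted p = 0.0131). The cell cycle inhibitor CDKN1B read 0.23, 0.33 and 0.51 (fitted 0.33 ± 0.09), and the DNA damage kinase ATM read 0.23, 0.40 and 0.80 (fitted 0.39 ± 0.12). Without meat 3/kibble 3 replicate 2 their adjusted p-values were 0.122, 0.157, 0.246 and 0.388 in this order. The muscle myosin MYH8 (0.42 ± 0.11), the zinc finger gene ZNF331 (0.40 ± 0.12), the potassium channel gene KCNA2 (0.37 ± 0.10), the serotonin receptor gene HTR2A (0.35 ± 0.10), the initiation factor EIF2D (0.32 ± 0.09), the deubiquitinase USP11 (0.28 ± 0.07) and the replication factor MCMBP (0.26 ± 0.08) completed the direction, with RPS27A. Without meat 3/kibble 3 replicate 2 MCMBP alone of these 8 kept its call (adjusted p = 0.0206), the others having 0.158 to 0.356, while without meat 3/kibble 3 replicate 1 MCMBP had 0.355. Each of the 15 largest higher calls missed the threshold without at least 2 of the 3 arrays. HTR2A was well above background in 7 of 7 meat but only 4 of 7 kibble channels, so the size of its difference is uncertain.

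Among functional groups, antigen presentation by MHC class II had fitted values below 0 for all 8 genes measured, where 672 of all 1090 named genes were below 0. Called lower were 2 of the 8, against 8.35% of the named genes. DLA-DQA1, a class II alpha chain, read -0.29, -0.23 and -0.93 (fitted -0.45 ± 0.12, adjusted p = 0.0263), and CTSS, counted among the monocyte genes too, was the other. The co-stimulator CD80 read 0.37, -0.60 and -1.25, and the class II alpha chain DLA-DRA read -0.34, 0.11 and -0.49, neither past the threshold. DLA-DQA1 also missed without kibble 3/meat 3 replicate 1 (0.0614). The median was -0.27, and without meat 3/kibble 3 replicate 2, the lowest array for most of them, 0 of 8 were called. Dog class II chains resemble each other, so single probes may not separate them. In the class I pathway 1 of 6 was lower, the peptide-loading chaperone TAPBP (-0.23 ± 0.07, adjusted p = 0.0349), which missed the threshold without each of the 3 arrays (0.0674 to 0.27).

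Antioxidant and fatty acid genes gave 2 lower calls each, with 1 gene in both, which is too few to set against the 8.35% of named genes called lower. There were 9 oxidative stress genes measured. Catalase (CAT), which removes hydrogen peroxide, read -0.69, -0.23 and -0.35 (fitted -0.48 ± 0.13, adjusted p = 0.0246). Thioredoxin reductase TXNRD1 read -0.33, -0.42 and -0.24 (fitted -0.28 ± 0.08, adjusted p = 0.0404). Of 6 genes of fatty acid oxidation 2 were lower, CAT again and CPT1A, which admits long-chain fatty acids to mitochondria (-0.45, -0.18 and -0.67, fitted -0.51 ± 0.12, adjusted p = 0.0152). Another CPT1A probe gave -0.20. Without meat 3/kibble 3 replicate 2 the adjusted p was 0.162 for CAT, 0.113 for TXNRD1 and 0.186 for CPT1A, and CAT and TXNRD1 also missed without each of the other two arrays.

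The heavy chain of ferritin, FTH1, which stores iron, read -0.09, -1.66 and -0.80 and fell short of the threshold (adjusted p = 0.0536), leaving CD163 as the 1 lower call of 7 iron and haem genes. ARG2, the mitochondrial arginase, was the 1 lower call of 2 amino acid genes measured. It read -1.81, -0.55 and -0.17 (fitted -0.77 ± 0.22, adjusted p = 0.0334) and had an adjusted p of 0.204 without kibble 3/meat 3 replicate 1, 0.0657 without meat 3/kibble 3 replicate 1 and 0.0585 without replicate 2. Single calls in lists of 7 and 2 genes are too few to set against the 8.35% of named genes called lower.

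CCL5 was the 1 lower call of 12 inflammatory NF-kB targets, against 8.35% of the named genes. Of the 12, 9 had fitted values below 0, with a median of -0.13, where 672 of all 1090 named genes were below 0. TNF, the best known of those targets, was not among the 9, at 0.11 ± 0.08. Of 8 chemokine receptor and homing genes measured, 2 were called lower and 0 higher, too few to set against the 8.35% of named genes called lower. CX3CR1, counted among the cytotoxic genes too, was among the 2. Fitted values were below 0 for 7 of the 8, where 672 of all 1090 named genes were below 0. The gut-homing chemokine receptor CCR9 was the exception, at 0.52 ± 0.20 (adjusted p = 0.112 in limma).

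Ribosomal protein genes, which build the translation machinery, differed by dye order. Their median was 0.33 on the array with meat in Cy5, and -0.24 and -0.14 on both others, and their median dye term was 0.18 in favour of Cy5. In the fit the median of 19 genes was 0.01, and 1 was called higher, RPS27A (0.29 ± 0.09, adjusted p = 0.0466). Of all named genes, 1.56% were called higher. RPS27A read 0.75 on kibble 3/meat 3 replicate 1 and 0.04 on meat 3/kibble 3 replicate 1, and it missed the threshold without each of the 3 arrays (0.117 to 0.19). With median centring the ribosomal median was -0.14, so its direction depends on the scaling.

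None of 6 interferon genes, 11 T cell activation genes, 11 eicosanoid genes, 11 apoptosis genes, 5 heat shock genes, 5 genes of oxidative phosphorylation, 3 glycolysis genes or 3 immediate early genes was called in limma, nor the single measured genes of cholesterol synthesis and glucocorticoid response. CTLA4, an inhibitory T cell receptor, read 1.05, 0.83 and 0.56 with an adjusted p of 0.206, and the interferon genes OAS1 and OAS2 read -1.47 and -1.73 on meat 3/kibble 3 replicate 2 but 0.24 and 0.27 on replicate 1. Of 3 cell cycle genes CENPS was called, and of 8 drug metabolism genes CYP3A12 was, both higher, against 1.56% of the named genes.

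The other 65 named calls, 63 of them lower, include genes chosen here after their values were seen. YBX3, a cold shock domain protein that binds nucleic acids, had the smallest adjusted p of all named genes (0.000271), with -0.69, -0.90 and -1.21 and a fitted -0.86 ± 0.11. C5AR1, the receptor for complement C5a on myeloid cells, read -1.47, -0.37 and -0.79 (fitted -0.83 ± 0.19, adjusted p = 0.0137). The small GTPase gene RHOB read -0.49, -0.42 and -0.60 (fitted -0.47 ± 0.08, adjusted p = 0.00191), but its other probe gave -0.09. In contrast the actin genes ACTB (0.02, -0.89 and -1.10) and ACTG1 (0.39, -1.51 and -1.08) were split by dye order. Their fitted values of -0.50 ± 0.12 and -0.56 ± 0.15 rest on dye terms of 0.43 and 0.54 in favour of Cy5, and near-identical actin sequences may share probes. Of the 108 named calls, 20 also had a dye term past the threshold.

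Among calls with no symbol, the transcript ENSCAFT00000000941 was the lowest, with -2.91, -2.92 and -2.78 and a fitted -2.70 ± 0.25 (adjusted p = 1.34e-06). It was well above background in 7 of 7 kibble but only 4 of 7 meat channels, so the size of its difference is uncertain. TC75528 read -2.92, -2.63 and -2.61, and XM_539323, one of the largest higher calls, read 0.71, 1.45 and 2.21. Where a called named gene had further probes, 77 of 79 of them in 54 genes had the same sign, with a median of 0.75 of the reported size.

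Whether the diet difference changed between weeks was asked within the same fit by setting week 3 against weeks 0, 6 and 9. By adjusted p none of the 25954 differences between weeks was called in limma, against 2178, 2523 and 2603 at an unadjusted p under 0.05 (8.39%, 9.72% and 10% of those tested, and 9.17%, 9.45% and 13.6% of the named genes). The diet groups differed in 81 genes and transcripts at the start (0.312%), in 1617 at week 6 (6.23%) and in 151 at week 9 (0.582%), or in 0.55%, 9.72% and 0.917% of the named genes. These unequal counts do not show that the differences changed, since no difference between weeks passed.

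MS4A2 was as low at the start as later, with -1.17 ± 0.18, -1.18 ± 0.18, -0.98 ± 0.17 and -1.36 ± 0.17 in the order of the weeks. It was past the threshold at week 0 already (adjusted p = 0.00265 in limma), as were SULF2, an extracellular sulfatase gene (-0.84 ± 0.16), P2RY1, an ADP receptor gene (-0.37 ± 0.08), and ELANE (-0.31 at week 0). Of the 108 named genes called at week 3, these 4 were past the threshold at week 0. CAMP was at -1.86 ± 0.47 at week 0 (adjusted p = 0.0988), and its week 3 value was lower by a further 1.09 ± 0.66, which did not pass (adjusted p = 0.659). The unnamed ENSCAFT00000000941 was at -2.52 ± 0.25 at week 0 (adjusted p = 6.00e-06). Apart from CAMP, these genes were thus called lower in the meat group at the start of the experiment. AK1, LGALS3, TIMP1 and CYBB were not called at week 0 but lay below 0 there too. They were at -0.70 ± 0.21, -0.62 ± 0.20, -0.66 ± 0.19 and -0.56 ± 0.16 (adjusted p of 0.19, 0.238, 0.16 and 0.164 in limma). A missed threshold at week 0 thus does not show that the groups were equal then.

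CCL5 and CD8A showed another course. For weeks 0, 3, 6 and 9 CCL5 was at -0.34 ± 0.25, -1.30 ± 0.25, -1.27 ± 0.24 and -0.19 ± 0.24. CD8A was at 0.02 ± 0.19, -0.69 ± 0.19, -0.55 ± 0.17 and -0.10 ± 0.17. Both were lower at weeks 3 and 6 than at weeks 0 and 9. Arrays that pair weeks 3 and 6 link these weeks in the fit, so their values are not independent. No array pairs either of them with week 0 or 9, so week and loop cannot be told apart. CCL5 and CD8A were singled out here after their values were seen. Their differences between week 3 and week 0 (-0.96 ± 0.35 and -0.71 ± 0.26) had an adjusted p of 0.51 each in limma.

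GP1BA was at -0.72 ± 0.30, -1.23 ± 0.30, -1.83 ± 0.28 and -0.86 ± 0.28, and it passed at weeks 3 and 6 but not at weeks 0 and 9 (adjusted p of 0.439 and 0.187 in limma). TLR2, in contrast, was at -0.78 ± 0.26 at week 3 against 0.22 ± 0.26, -0.17 ± 0.24 and 0.00 ± 0.24 at weeks 0, 6 and 9. CENPS, higher at week 3, was at -0.04, -0.07 and -0.13 at the other weeks. None of these differences between weeks passed (adjusted p of at least 0.459 for CENPS and 0.495 for TLR2 with all 3 weeks).

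**Figure D5:**
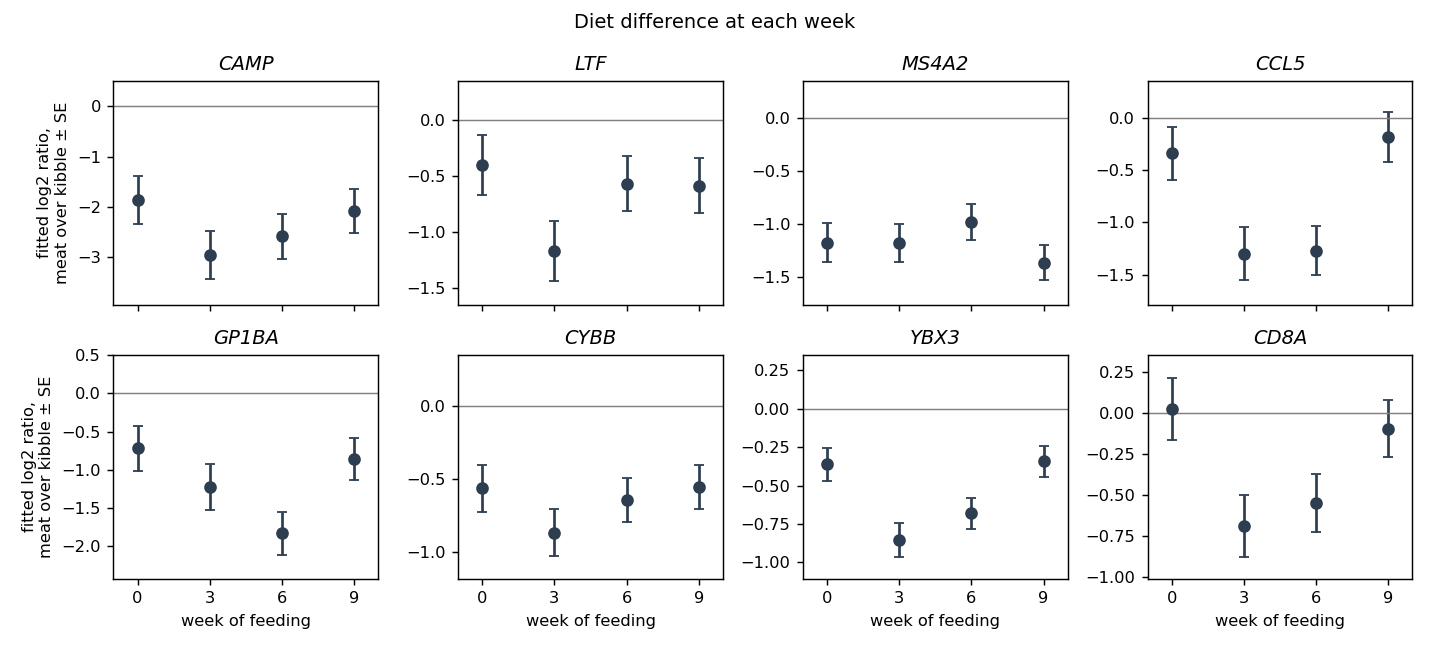
Fitted log2 ratio of meat over kibble (vertical axes, scaled separately per gene) at weeks 0, 3, 6 and 9 for 8 genes called at week 3, with bars of ± SE. Every gene but CD8A lay below 0 at every week. All but MS4A2 and GP1BA were lowest at week 3, with no difference between weeks past the threshold. The genes were chosen with their week 3 values known, and that choice favours low values at week 3.

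The week 3 difference was also estimated without the 3 arrays, by the path from kibble to meat through week 6 alone. That path called 0 genes and transcripts in limma, with 1297 at an unadjusted p under 0.05 (5%), or 5.23% of the named genes. Of the 108 named calls, whose fit includes that path, 80 lay within 2 SE of 0 on it. CAMP was at -3.40 ± 0.94, CCL5 at -1.23 ± 0.52 and MS4A2 at -1.17 ± 0.36 by that path, close to the values from all arrays, while GP1BA was at -0.58 ± 0.60 and TSHB at -0.41 ± 0.57. The 3 arrays by themselves, with no dye term, called 2 transcripts, both lower, and with a dye term 0. The fit of all 30 arrays without a dye term called 1262. Of the 43 genes named by rule, 34 missed the threshold without meat 3/kibble 3 replicate 2, 28 without kibble 3/meat 3 replicate 1 and 22 without meat 3/kibble 3 replicate 1. Arrays of other comparisons mattered less: 16 of the 43 missed without at least 1 of them, with adjusted p-values of at most 0.0705. CAMP, CCL5, MS4A2, AK1, LGALS3, TIMP1 and CYBB were the 7 that passed without any 1 of the 30 arrays.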

How the data were processed

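PBMC RNA (200 ng per sample) was labelled and hybridised to Agilent 2-colour arrays. Per the file headers, Feature Extraction 10.10.1.1 gave the deposited median intensity and local background of every spot for both dyes. The authors' deposited matrix holds normalised log2 ratios, made with limma per the submitters' processing notes, and correlated with those computed here at 0.977 to 0.984 for the week 3 arrays.

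Background was corrected by normexp (offset 50) and ratios were normalised by loess within each array, without control spots and 979 faulty spots (0 saturated). The plan named mean signals. The files hold medians. A filter kept 31698 probes that exceeded background clearly in 7 or more of 60 channels, and the brightest probe stood for its gene or accession. Symbols came from a match of RefSeq accessions (2175 of 43603 probes).

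limma 3.58.1 (R 4.3.3) fitted all 30 arrays with a coefficient per group of diet and week and a dye term per gene (23 residual degrees of freedom). Tests were two-sided, and p-values were adjusted by Benjamini-Hochberg over all 25954 genes and transcripts. The fit was tested on simulated data. The number of arrays limits the precision. Genes named were the 15 largest calls in each direction, up to 4 calls per list with the smallest p, and up to 3 per direction for each difference between weeks. Genes given beyond these rules, such as list members that were not called, were chosen with their values known, though not each is marked so. So were the genes whose weekly courses are given. The comparison, the 30 lists and the rules were chosen with earlier results of these data known. Alternatives covered background, normalisation, filters, the dye term, blocks, weights, probes and omitted arrays. Results for 2 genes that these rules select are not reported here.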

Additional observations from a re-analysis of the deposited data

How the results depend on the processing

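The week 3 count of 1580 stayed within 1.5 times under 12 alternatives, from 1055 to 2136 (array weights). It was 1034 with Feature Extraction's processed signals, 127 with median centring, 0 with the week 3 arrays alone and a dye term, 2 without that term, and 0 without the 3 week 3 arrays. A dye term per scan session, added after seeing the data, gave 573. Leaving out 1 array gave 215 (without meat 3/kibble 3 replicate 2) to 2070 (without meat 6/meat 3 replicate 2). The causes were not tested, and the smaller fits also hold fewer arrays.

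The differences between weeks stayed at 0 calls, except week 3 minus week 6 with Feature Extraction signals (1) and array weights (2). Without 1 array the range was 0 to 3 for week 0, 0 to 0 for week 6 and 0 to 1 for week 9.

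Of 2064 values for the 43 named genes under 48 alternatives, 450 missed the threshold and 0 reversed. A replicate block gave 1055 calls at week 3. Deviations of same-numbered samples correlated at -0.80 to 0.49, with 30 of 102 pairs above 0.1. The numbers were not taken to pair samples.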
